A study of Mus musculus with 32 samples.

Results

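Genes for chaperones of the endoplasmic reticulum (ER) and for the unfolded protein response were followed in mouse bone marrow-derived macrophages (BMDMs) during stimulation with lipopolysaccharide (LPS). The set holds 34 genes of 25067 in the table. Its members were chosen by their known roles, but with earlier results of these data already known. Each gene was taken from the RefSeq transcript with the highest mean count. A mean RPKM (reads per kilobase of transcript, scaled to library size) over 1 in at least 1 group was required for a test, which 33 members and 11187 genes in all met. The member left out, Derl3, which encodes a derlin of secretory cells, had between 0 and 0.364 CPM (counts scaled to library size by the TMM method) in every library. RNA-seq had been done on macrophages of both genotypes, BMDM-WT and BMDM-Nur77-KO. Cells had been left without LPS (0 h) or given 100 ng/ml of it, and were collected after 1, 5 or 18 h. Each of the 8 groups had 4 libraries, 32 in all. The donors were male C57Bl6/J mice aged 6 to 12 weeks, wild-type or lacking Nr4a1, the gene of the nuclear receptor Nur77. The knockout allele was made in the whole body with a CMV-driven Cre and loxP sites around Nr4a1, and Cre was bred out before use. The labels give the genotype of the knockout libraries as cre. Marrow cells of both genotypes grew for 7 days in L929-conditioned medium and were replated before LPS, the 0 h groups receiving none. The sources describe 4 replicates in plates and do not say how many mice they came from, so p-values measure the spread between these samples, which may be technical.

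Proteins that enter the secretory pathway fold in the lumen of the ER with help from chaperones and disulfide isomerases. When folding falls behind, sensors in the ER membrane (IRE1, ATF6 and PERK) start the unfolded protein response, which raises chaperone, translocon and degradation genes and slows translation. LPS-stimulated macrophages secrete large amounts of cytokines, and signalling from Toll-like receptors is known to engage IRE1 and its target XBP1.

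Nr4a1 checked the labels. At 0 h its level was 19.5, 15.5, 25.8 and 18.2 CPM in the BMDM-WT libraries and 4.93, 4.63, 4.46 and 7.03 CPM in the BMDM-Nur77-KO libraries. At 1 h these levels were 485, 486, 359.6 and 422 CPM and 243, 180.2, 147 and 194 CPM, so the transcript was lower in the knockout but not absent. The table has 1 value per transcript and does not separate exons kept in the allele from those removed. Library totals were 8742362 to 15780926 counts, with a median of 11847140. All 7 macrophage markers checked were expressed, summing to 10830 CPM or more in every library. Their sum at 18 h was lower in BMDM-Nur77-KO (10830 to 12310 CPM) than in BMDM-WT (13780 to 14380 CPM), without overlap. The 5 dendritic cell markers summed to 0.613 to 1.36 CPM in BMDM-WT at 0 h, 10.4 to 15.7 CPM in BMDM-WT at 5 h and 10.5 to 21.8 CPM in BMDM-Nur77-KO at 5 h. Xcr1 made up most of the sum at 5 h, with a highest group mean of 14.7 CPM. Flt3, Zbtb46, Siglech and Cd209a had group means of at most 0.782 CPM. The 8 neutrophil markers summed to at most 52.2 CPM. At 1 h their sum was higher in BMDM-Nur77-KO (43.4 to 52.2 CPM) than in BMDM-WT (28.2 to 37.8 CPM). S100a8, S100a9, Ngp and Ltf made up most of this sum. Ly6g, Camp, Mpo and Elane had group means of at most 0.742 CPM. The 8 plasma and B cell markers summed to at most 8.12 CPM, the 6 fibroblast markers to at most 1.87 CPM and the 4 mast cell markers to at most 0.154 CPM. The part of these cells in the results at the same times was not tested. Replicate 1 of BMDM-Nur77-KO at 5 h stood apart, with a median correlation of 0.958 to the other libraries of its group, where every other library had 0.98 or more. It came with a lower TMM scaling factor, 0.716, than the other libraries of that group, the highest of which had 0.835. Counts and calls of members at 5 h that changed without it are given both ways. For genes outside the set, only the share called among all genes was read from the fits without it.

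The ER stress element is the promoter sequence through which ATF6 and XBP1 are known to act at chaperone genes. It is shown as a feature that many members share. The members were chosen by their known roles in this response, so a high share among them could be foreseen and is no test of the set. The promoter window of RefSeq (GRCm38.p6) from 250 bases before to 50 bases after the annotated start was found for 28 of the 34 members. An exact element, CCAAT and CCACG 9 bases apart on either strand, was found in 9 of these 28 (32.1%) and in 37 of the 27025 genes with a window (0.137%). The second form, ATTGG and CCACG 1 base apart, was found in Herpud1 and Dnajb11 (7.14% of members, 0.0444% of all genes). Either form occurred in 11 members (39.3%) and in 49 genes (0.181%), so 11 of those 49 genes are members. The shorter unfolded protein response element TGACGTG occurred in 601 windows (2.22%), of which Hspa5 was the only member (3.57%). The matches are letters in a window and do not show that a factor binds. Each of the 12 is printed with its 6 flanking bases on either side, read in the direction of the element, and capitals mark its 2 conserved parts:
Calr: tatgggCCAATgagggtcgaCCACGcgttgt
Canx: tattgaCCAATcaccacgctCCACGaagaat
Creld2: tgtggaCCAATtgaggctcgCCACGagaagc
Derl3: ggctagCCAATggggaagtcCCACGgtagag
Dnajc3: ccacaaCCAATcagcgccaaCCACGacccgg
Hsp90b1: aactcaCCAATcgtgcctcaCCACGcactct
Hsp90b1: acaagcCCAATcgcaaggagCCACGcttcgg
Hspa5: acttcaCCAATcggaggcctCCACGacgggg
Pdia6: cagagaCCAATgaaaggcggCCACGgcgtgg
Syvn1: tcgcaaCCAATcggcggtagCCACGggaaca
Dnajb11: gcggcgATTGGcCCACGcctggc
Herpud1: gcgctgATTGGgCCACGttggac
The Hspa5 element lay at chr2:34772025-34772043, with its first base 65 bases before the start. The Herpud1 element lay at chr8:94386377-94386387, 52 bases before the start. Hsp90b1 held a pair of elements, 107 and 212 bases before its start and in opposite orientations. Only the Dnajb11 element lay after the start of transcription, at chr16:22857852-22857862. The other elements lay between 44 and 162 bases before the start.

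**Figure D1:**
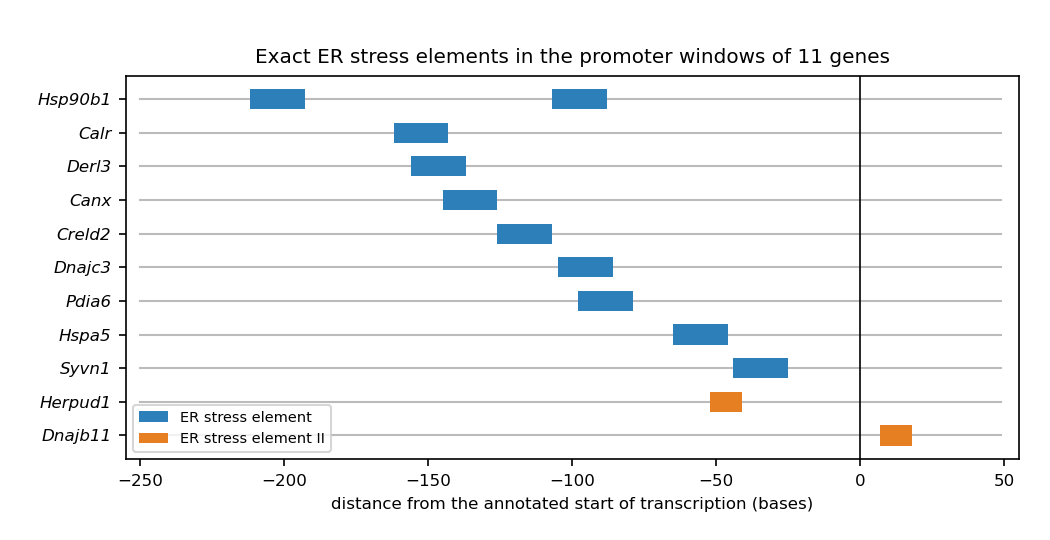
Position of the exact ER stress elements in the promoter windows of 11 genes, in bases from the annotated start of transcription (vertical line at 0). Blue bars are the longer element and orange bars the second form; every element but that of Dnajb11 lies before the start.

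Before LPS, the members spanned a wide range of levels. In BMDM-WT at 0 h the order by RPKM began with Calr, a lectin chaperone that binds calcium, at 418 ± 17.2 RPKM (SD, n = 4). Hspa5, which encodes BiP, the main chaperone of the lumen, followed at 298 ± 17.8 RPKM (SD, n = 4). Hsp90b1 (GRP94) at 274 ± 4.96 RPKM and the isomerase Pdia3 at 214 ± 4.67 RPKM came next (SD, n = 4). The libraries of Hspa5 (272 to 311) and Hsp90b1 (268 to 280) overlapped, whereas those of Calr, Hsp90b1 and Pdia3 did not. P4hb had 153 RPKM, Canx 135 RPKM and Ssr3 103 RPKM on average. At the lower end were Herpud1 at 9.86 ± 0.661 RPKM and the sensor Ern1 at 4.99 ± 0.281 RPKM (SD, n = 4). The members together took 0.847% ± 0.00595 of all counts in BMDM-WT at 0 h, 0.679% ± 0.0112 at 5 h and 0.784% ± 0.0228 at 18 h (SD, n = 4). In BMDM-Nur77-KO these shares were 0.797% ± 0.0233, 0.649% ± 0.0242 and 0.688% ± 0.0314. The highest share of a BMDM-Nur77-KO library at 0 h, 0.817%, was below the lowest of a BMDM-WT library, 0.839%.

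LPS did not move the members as a block. In BMDM-WT, Hspa5 rose at every time, Dnajb11 rose at 5 and 18 h, Ssr3 was called up at 5 h alone, and Herpud1 and Ern1 fell at 5 h and rose again by 18 h. At 1 h, 3 members rose (10.1% of all genes tested) and 1 fell (10.2% of all genes), at an adjusted p under 0.05 in edgeR's quasi-likelihood test, Benjamini-Hochberg adjusted. At 5 h, 9 members rose (30.1% of all genes) and 7 fell (40.1% of all genes). At 18 h, 10 rose (32.4% of all genes) and 7 fell (34% of all genes). As shares of the 33 members tested, the rises were 9.09%, 27.3% and 30.3%, close to the background, and the falls 3.03%, 21.2% and 21.2%, below it. The median log2 fold change of the members was -0.015 at 1 h, 0.079 at 5 h and 0.16 at 18 h, beside medians of -0.031, -0.14 and -0.0041 over all genes. With DESeq2's size factors in the same test, 15 members rose (33.2% of all genes) and 5 fell (35.6% of all genes) at 5 h, since every log2 fold change was then 0.091 higher. Per library total instead of TMM, every log2 fold change at 5 h against 0 h would be 0.62 lower in either genotype, and those at 18 h 0.36 lower in BMDM-WT and 0.44 lower in BMDM-Nur77-KO. In bulk RNA, less RNA per cell and fewer cells of a kind cannot be told apart.

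**Figure D2:**
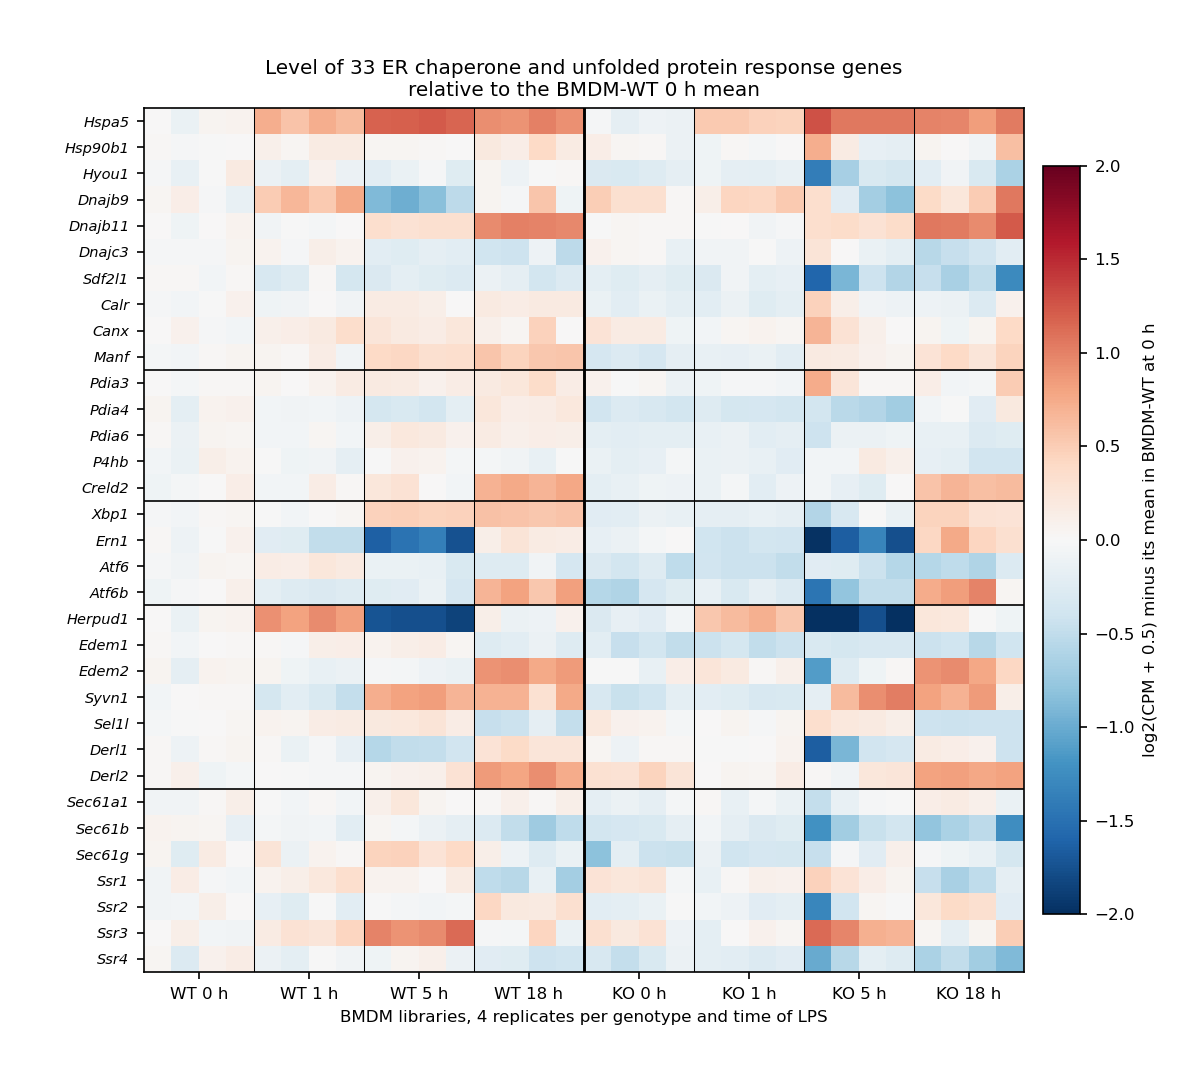
Level of each of the 33 members tested (rows, by role from top: chaperones, disulfide isomerases, sensors and transcription factors, degradation, translocon) in each of the 32 libraries (columns), as log2(CPM + 0.5) minus its mean in BMDM-WT at 0 h. Hspa5 is red in all LPS columns, Ern1 and Herpud1 are dark blue at 5 h, and the first BMDM-Nur77-KO column at 5 h differs from its 3 neighbours for many genes.

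Among the 10 chaperones and co-chaperones of the lumen, Hspa5 had the largest rise in BMDM-WT. Its levels were 783, 711, 806 and 813 CPM at 0 h, 1285, 1158, 1291 and 1205 CPM at 1 h, 1754, 1782, 1816 and 1746 CPM at 5 h and 1478, 1454, 1557 and 1459 CPM at 18 h. No library of any LPS time overlapped those of 0 h. The rise was 1.59-fold at 1 h (log2 fold change 0.67 ± 0.062 SE, adjusted p = 4.7e-10), 2.28-fold at 5 h (log2 fold change 1.19 ± 0.063 SE, adjusted p = 7.25e-17) and 1.91-fold at 18 h (log2 fold change 0.93 ± 0.062 SE, adjusted p = 3.15e-14) in edgeR's quasi-likelihood test, Benjamini-Hochberg adjusted. The fall from 5 to 18 h also passed the threshold (log2 fold change -0.26 ± 0.062 SE, adjusted p = 0.000574 in the same edgeR test). Dnajb11, a co-chaperone that brings substrates to BiP, had a log2 fold change of -0.029 at 1 h, which did not pass. It had 124, 116, 124 and 129 CPM at 0 h, 155, 151, 154 and 153 CPM at 5 h and 238, 249, 244 and 239.5 CPM at 18 h. These groups did not overlap, and the rise reached 1.97-fold at 18 h (log2 fold change 0.98 ± 0.055 SE, adjusted p = 4.28e-16 in the same edgeR test). Manf, a secreted protein that binds BiP, rose at 5 and 18 h, with log2 fold changes of 0.37 and 0.53. Dnajb9, a BiP co-chaperone and a target of XBP1, rose at 1 h (log2 fold change 0.62) and fell at 5 h (-0.82), and at 18 h its value was 0.15. Dnajc3, which restrains PERK and serves BiP, fell at 5 and 18 h, by 0.21 and 0.35 on the log2 scale. Hsp90b1, Hyou1, Sdf2l1, Calr and Canx passed the threshold at no time in BMDM-WT, with log2 fold changes between -0.26 and 0.23.

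Of the 5 disulfide isomerases and related genes, 1 rose and 1 fell at 5 h in BMDM-WT (30.1% and 40.1% of all genes), and 2 rose at 18 h (32.4% of all genes). Creld2, a secreted isomerase-like gene known to rise in ER stress, had 22.1 ± 1.5 CPM at 0 h and 37 ± 1.13 CPM at 18 h (SD, n = 4), a log2 fold change of 0.74, and the groups did not overlap. Pdia4 fell at 5 h (log2 fold change -0.31) and rose at 18 h (0.18). Pdia6, which also ends IRE1 signalling, rose at 5 h by a log2 fold change of 0.15. Pdia3 and P4hb, the most abundant isomerases, did not pass the threshold, with log2 fold changes between -0.086 and 0.23.

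Of the 4 sensors and transcription factors, Ern1, which encodes the sensor IRE1, changed most. Its levels in BMDM-WT were 35.1, 32.1, 34.6 and 36.9 CPM at 0 h, 29.5, 29.3, 24.4 and 24.4 CPM at 1 h, 10.9, 12.2, 13.2 and 10.0 CPM at 5 h and 37.5, 41.4, 38.7 and 38.5 CPM at 18 h. The fall was small at 1 h (log2 fold change -0.36 ± 0.10 SE, adjusted p = 0.0101) and left 0.334 of the level at 5 h (log2 fold change -1.58 ± 0.11 SE, adjusted p = 8.85e-14) in edgeR's quasi-likelihood test, Benjamini-Hochberg adjusted. From 5 to 18 h the level rose 3.37-fold (log2 fold change 1.75 ± 0.11 SE, adjusted p = 1.32e-14 in the same edgeR test). At 18 h the libraries lay above those of 0 h, but the difference did not pass the threshold (log2 fold change 0.17 ± 0.10 SE, adjusted p = 0.133 in the same edgeR test). Xbp1, whose mRNA IRE1 splices, had 89.3, 87, 92.3 and 93.4 CPM at 0 h, 125, 126, 123 and 125 CPM at 5 h and 136, 135, 132 and 135 CPM at 18 h. The rise was called at 5 h (log2 fold change 0.46 ± 0.076 SE, adjusted p = 2.84e-06) and 18 h (log2 fold change 0.57 ± 0.075 SE, adjusted p = 9.08e-08) in the same edgeR test. At 1 h the level was 90.3, 86.7, 90.6 and 92.6 CPM, overlapping 0 h. Of the 2 RefSeq rows of Xbp1, the one with the higher mean count was used, and spliced and unspliced mRNA were not separated. Atf6b, a relative of ATF6, rose at 18 h, from 34.2, 35.8, 36.6 and 39 CPM at 0 h to 58.3, 63.6, 52.8 and 64.9 CPM (log2 fold change 0.72 ± 0.15 SE, adjusted p = 0.000101 in the same edgeR test). Atf6 itself had 149, 144, 156 and 155 CPM at 0 h, 167, 167, 176 and 171 CPM at 1 h, 137, 137, 136 and 123 CPM at 5 h and 127, 127, 145 and 120.1 CPM at 18 h. Its small falls at 5 h (log2 fold change -0.18 ± 0.078 SE, adjusted p = 0.0388) and 18 h (log2 fold change -0.22 ± 0.078 SE, adjusted p = 0.0135) passed in the same edgeR test, but with DESeq2's size factors the adjusted p was 0.323 at 5 h and 0.0517 at 18 h in edgeR, and the 18 h libraries overlapped those of 0 h.

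The 8 genes of ER-associated degradation, which passes misfolded proteins to the proteasome, had rises and falls at both 5 and 18 h, with 7 of the 8 tested. Herpud1, an organiser of the degradation complex, had 19.3, 17.4, 20.0 and 20.2 CPM at 0 h, 36.5, 34.1, 37.5 and 34.3 CPM at 1 h, 5.44, 5.36, 5.31 and 4.95 CPM at 5 h and 20.8, 17.7, 17.9 and 20.4 CPM at 18 h. It rose 1.85-fold at 1 h (log2 fold change 0.89 ± 0.089 SE, adjusted p = 2.35e-09) and fell to 0.274 of the level at 5 h (log2 fold change -1.87 ± 0.11 SE, adjusted p = 6.54e-16), in edgeR's quasi-likelihood test, Benjamini-Hochberg adjusted, with no overlap in either case. At 18 h its libraries overlapped those of 0 h (log2 fold change -0.0014 ± 0.092 SE, adjusted p = 0.991 in the same edgeR test). Syvn1, the ubiquitin ligase HRD1, rose at 5 and 18 h, with log2 fold changes of 0.77 and 0.62. Derl2 and Edem2, a channel component and a mannosidase-like protein, rose at 18 h, by 0.83 and 0.86 on the log2 scale. Derl1 fell at 5 h (log2 fold change -0.48). Sel1l, the partner of HRD1, rose at 5 h (0.21) and fell at 18 h (-0.38). Edem1, which hands misfolded glycoproteins to degradation, fell at 18 h (-0.21).

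The 7 genes of the translocon, through which nascent proteins enter the ER, differed in direction. Ssr3, a subunit of the translocon-associated complex, had 307, 332, 295 and 289 CPM at 0 h, 611, 569, 591 and 672 CPM at 5 h and 299.6, 296, 410.4 and 277 CPM at 18 h in BMDM-WT. All 5 h libraries lay above those of 0 and 18 h (log2 fold change 1.00 ± 0.13 SE, adjusted p = 4.15e-08 at 5 h, log2 fold change -0.93 ± 0.13 SE, adjusted p = 1.85e-07 from 5 to 18 h in edgeR's quasi-likelihood test, Benjamini-Hochberg adjusted). Sec61g, a subunit of the channel, rose at 5 h as well (log2 fold change 0.40). Ssr1 fell at 18 h, from 207, 239.6, 213 and 208 CPM at 0 h to 151, 148, 194 and 135 CPM (log2 fold change -0.47 ± 0.11 SE, adjusted p = 0.000311 in the same edgeR test). Sec61b, another channel subunit, fell at 18 h from 26.5, 26.2, 26 and 22.4 CPM at 0 h to 20.8, 17.7, 15.3 and 17.6 CPM (log2 fold change -0.50 ± 0.13 SE, adjusted p = 0.00144 in the same edgeR test). The groups of Ssr1 and Sec61b did not overlap. Ssr4 fell at 18 h too (log2 fold change -0.33), whereas Sec61a1, the channel itself, and Ssr2 passed the threshold at no time, with values between -0.15 and 0.28.

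**Figure D3:**
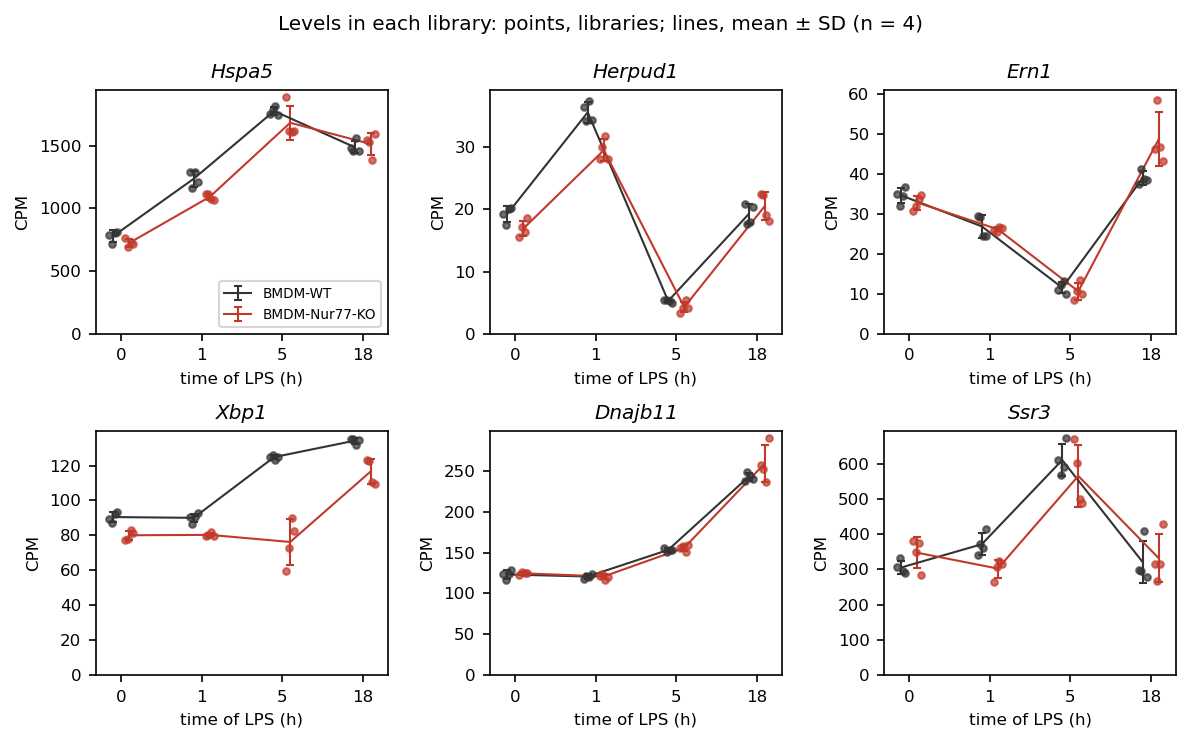
CPM of 6 genes against time of LPS (0, 1, 5 and 18 h, spaced evenly), each point 1 library, lines and bars the mean ± SD of 4 libraries, black BMDM-WT and red BMDM-Nur77-KO. Ern1 and Herpud1 reach their lowest levels at 5 h in both genotypes, and Xbp1 at 5 h is at 123 CPM or more in every BMDM-WT library and at 90.0 CPM or less in every BMDM-Nur77-KO library.

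From 5 to 18 h in BMDM-WT, 11 members rose (36.1% of all genes) and 8 fell (33.4% of all genes). The rises were led by Herpud1, Ern1, Dnajb9, Atf6b and Edem2, with log2 fold changes from 0.94 to 1.87. Of the 8 falls, 5 were translocon genes: Ssr3, Ssr1, Sec61g, Sec61b and Ssr4. A limit on the log2 fold change of 1 left few members in the comparisons with 0 h. At 1 h none rose (3.44% of all genes) or fell (1.66% of all genes) past it. At 5 h Hspa5 rose (15.9% of all genes) and Ern1 and Herpud1 fell (17.8% of all genes). At 18 h none rose (13.3% of all genes) or fell (14.1% of all genes) past it. An unadjusted p under 0.05 in edgeR with the same limit named the same members. The share of members past the limit was below that of all genes in each of these comparisons. Members with an ER stress element moved in both directions. Of the 10 tested members with an element, 4 rose and 2 fell at 5 h in BMDM-WT, between -1.87 and 1.19, beside 30.1% and 40.1% of all genes. Of the 17 whose window was searched and held none, 4 rose and 3 fell, and of the 6 with no window to search, 1 rose and 2 fell.

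In BMDM-Nur77-KO, Hspa5 rose at every time too, and Ern1 and Herpud1 fell at 5 h. The levels of Hspa5 were 763, 689.9, 727 and 716 CPM at 0 h, 1113, 1114, 1074 and 1063 CPM at 1 h, 1883, 1618, 1611 and 1614 CPM at 5 h and 1547, 1526, 1384 and 1591 CPM at 18 h. Every LPS library lay above every library at 0 h, with log2 fold changes of 0.59, 1.22 and 1.06. Herpud1 went from 15.6, 17.1, 16.3 and 18.5 CPM at 0 h to 28.1, 30.0, 31.7 and 28.2 CPM at 1 h, 3.36, 4.18, 5.35 and 4.21 CPM at 5 h and 22.5, 22.2, 19 and 18.2 CPM at 18 h. Ern1 went from 30.9, 32, 33.7 and 34.9 CPM at 0 h to 26.1, 25.5, 26.8 and 26.4 CPM at 1 h, 8.45, 10.7, 13.6 and 9.89 CPM at 5 h and 46.3, 58.6, 46.8 and 43.3 CPM at 18 h. Both thus had their low point at 5 h here too, and the 18 h level of Ern1 was above that of 0 h in every library (log2 fold change 0.57 ± 0.10 SE, adjusted p = 9.61e-06 in edgeR's quasi-likelihood test, Benjamini-Hochberg adjusted).

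By count, 2 members rose in BMDM-Nur77-KO at 1 h (6.9% of all genes) and 2 fell (5.39% of all genes). At 5 h, 9 rose (32.2% of all genes) and 9 fell (39.3% of all genes). At 18 h, 14 rose (33.9% of all genes) and 6 fell (35.7% of all genes). From 5 to 18 h, 15 rose (35.1% of all genes) and 7 fell (34.2% of all genes). Without replicate 1 at 5 h, 13 rose (35.3% of all genes), with Hyou1 and Sec61a1 lost, and 7 fell (33.4% of all genes), with Calr and Hspa5 lost and Sec61b and Ssr4 gained. The log2 fold change of Hspa5 was then -0.094, with an adjusted p of 0.155 in edgeR. The falls from 5 to 18 h numbered 5 (32.6% of all genes) without replicate 3 of the 18 h group and 10 (35.5% of all genes) without its replicate 4. The split at 5 h depended on the scaling, with 11 rises (35.4% of all genes) and 5 falls (35.2% of all genes) under DESeq2's size factors. Without replicate 1, 8 rose (30.6% of all genes) and 7 fell (38.9% of all genes), with Pdia3, Hyou1 and Sec61b lost. With the limit of 1 on the log2 fold change, none rose at 1 h (3.24% of all genes) or fell (1.27% of all genes). At 5 h, Hspa5 and Syvn1 rose past it (16.2% of all genes) and Ern1 and Herpud1 fell (16.4% of all genes). At 18 h, Hspa5, Dnajb11 and Atf6b rose past it (15.7% of all genes) and none fell (16.3% of all genes).

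The response to LPS relative to 0 h differed between the genotypes for 2 members. At 1 h no member had a larger (0.0447% of all genes) or smaller (0.0268% of all genes) response in BMDM-Nur77-KO, by edgeR's test of the difference itself. DESeq2 called none larger (0.134% of all genes) or smaller (0.188% of all genes) either. At an unadjusted p under 0.05 in edgeR, 1 was larger and 5 were smaller at that time. For counts at an unadjusted p, here and elsewhere, the share of all genes was not computed. At 5 h none was larger (1.74% of all genes) and 2 were smaller, Xbp1 and Derl2 (1.38% of all genes). No member was larger in DESeq2 (2.32% of all genes) or at an unadjusted p under 0.05 in edgeR. At 18 h none was larger (5.37% of all genes) and Derl2 was smaller (4.07% of all genes). DESeq2 called 1 larger (6.17% of all genes), and an unadjusted p under 0.05 in edgeR gave 3. Without the 18 h library of replicate 4 of the knockout, Ern1 and Atf6b were larger at 18 h as well (6.15% of all genes).

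The rise of Xbp1 at 5 h was not seen in BMDM-Nur77-KO. Its level there was 77.6, 78, 83 and 81.6 CPM at 0 h and 59.8, 72.6, 90.0 and 82.5 CPM at 5 h (log2 fold change -0.07 ± 0.076 SE, adjusted p = 0.413 in edgeR's quasi-likelihood test, Benjamini-Hochberg adjusted), whereas the BMDM-WT level rose. The difference between the responses was -0.53 on the log2 scale (standard error 0.11, adjusted p = 0.00338 in the same edgeR test). By 18 h the knockout had reached 123, 123, 111 and 109.7 CPM, and the difference in response was -0.027 (adjusted p = 0.941 in the same edgeR test). Replicate 1 had the lowest Xbp1 level of the 5 h knockout libraries. Without it the difference in response was -0.44 with an adjusted p of 0.00179 in edgeR, but in an edgeR fit to the libraries compared alone the adjusted p was 0.0552.

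Derl2 started from a higher level in the knockout and rose less by 18 h. At 0 h it had 46.3, 49.1, 43.3 and 44.6 CPM in BMDM-WT and 56.7, 56.1, 62.2 and 55 CPM in BMDM-Nur77-KO, without overlap (log2 fold change 0.33 ± 0.069 SE, adjusted p = 0.00164 in edgeR's quasi-likelihood test, Benjamini-Hochberg adjusted). At 18 h the libraries had 83, 79.2, 87.9 and 76.8 CPM and 80.1, 81.5, 78.3 and 80.2 CPM, which overlapped. The smaller response in the knockout at 18 h was -0.36 (standard error 0.10, adjusted p = 0.0148 in the same edgeR test) and that at 5 h -0.35 (standard error 0.10, adjusted p = 0.0459 in the same edgeR test). The call at 5 h was lost when any 1 of 11 libraries was left out, replicate 1 of the 5 h knockout group among them, and that at 18 h was kept whichever library was left out. Both differences hold the 0 h libraries, in which the genotypes already differed.

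At any given time, most members called between the genotypes were lower in BMDM-Nur77-KO. At 1 time or more, 16 of the 33 members tested had a lower level without Nur77 (21.8% of all genes were) and 2 were higher (25% of all genes). At 0 h, 6 members were lower (6.34% of all genes) and 1, Derl2, was higher (6.33% of all genes). At 1 h, 4 were lower (3.06% of all genes) and none higher (3.48% of all genes). At 5 h, 13 were lower (10.7% of all genes) and none higher (13.7% of all genes). DESeq2 called none higher at 1 h (4.34% of all genes) and 2 at 5 h (16.2% of all genes). An unadjusted p under 0.05 in edgeR gave the same 2 counts, without a share of all genes. At 18 h, 8 were lower (9.94% of all genes) and 1, Ern1, was higher (11.7% of all genes). The shares of members lower were 18.2%, 12.1%, 39.4% and 24.2%, above the background at each time. The median log2 fold change of the members was -0.14, -0.13, -0.22 and -0.072 at the 4 times, beside -0.028, -0.00049, 0.020 and -0.012 over all genes. With a limit of 0.58 on the log2 fold change, no member was lower at 0 h (2.38% of all genes), Atf6 alone at 1 h (1.36% of all genes), Xbp1 and Sec61b at 5 h (3.13% of all genes) and none at 18 h (4.17% of all genes). No member was higher past that limit at 0 h (2.36% of all genes), 1 h (1.47% of all genes), 5 h (5.67% of all genes) or 18 h (5.77% of all genes), nor at an unadjusted p under 0.05 with the same limit.

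**Figure D4:**
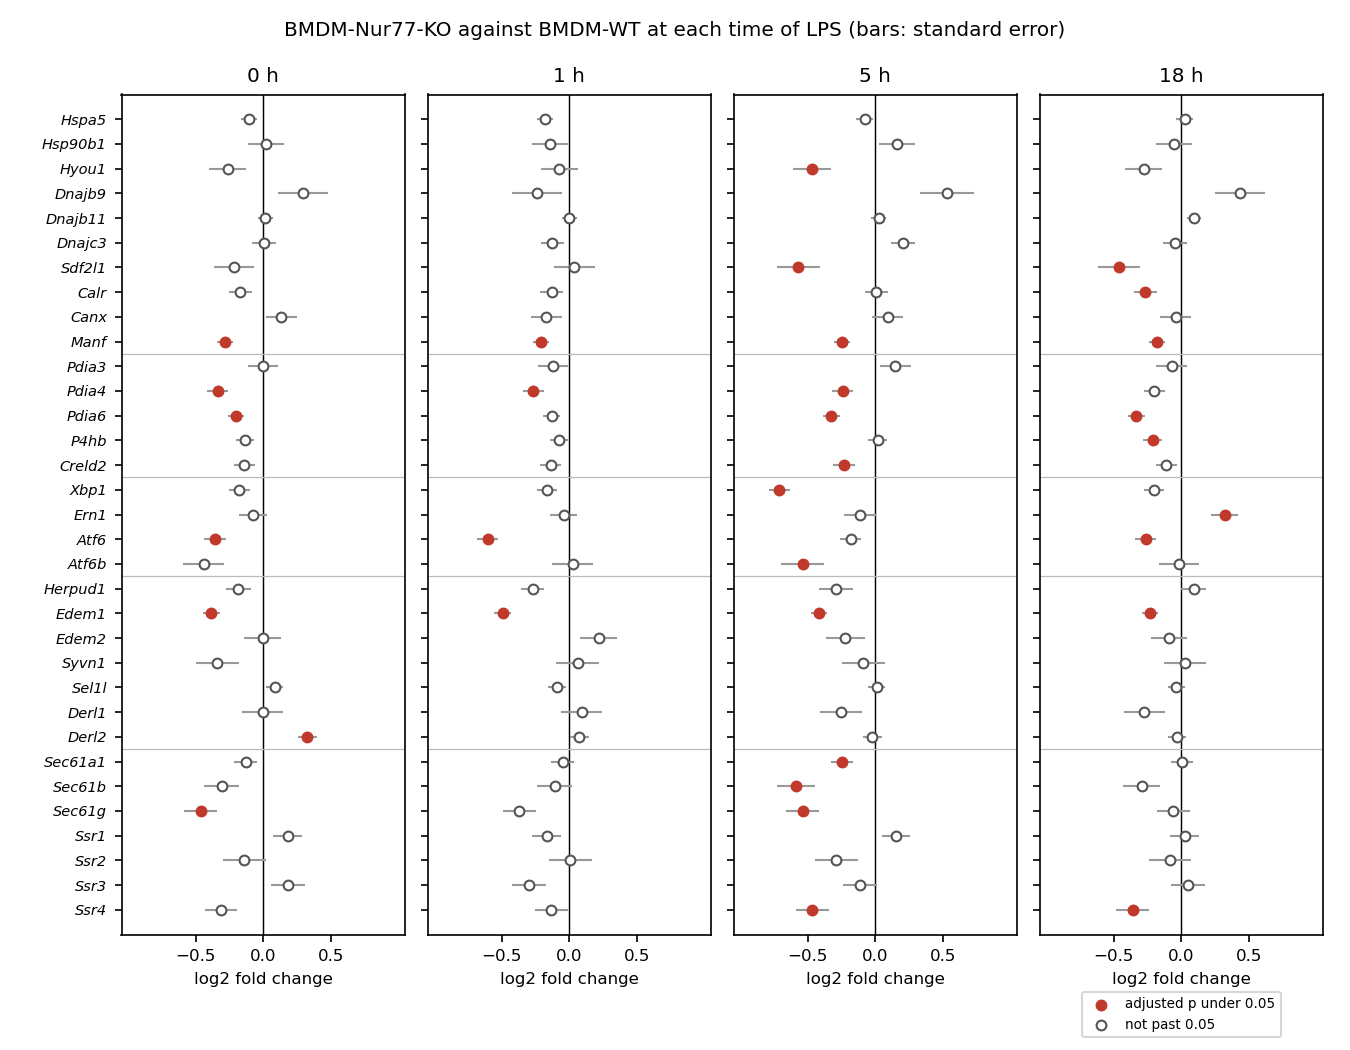
Log2 fold change of BMDM-Nur77-KO against BMDM-WT for each of the 33 members at 0, 1, 5 and 18 h of LPS, with the standard error as bar and filled red points at an adjusted p under 0.05. At each time at most 10 of the 33 points lie right of 0, 13 are filled at 5 h, and all 13 are on the left.

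The background is over all genes tested and was not matched on level. Of the 33 calls of members between the genotypes, 17 were kept whichever library was left out. The share kept among the calls of all genes was not computed, so this count has no background. Leaving out replicate 1 of the 5 h knockout group left 10 of the 13 lower members (6.1% of all genes), with Atf6b, Hyou1 and Sec61a1 lost. A fit to the 8 libraries at 5 h alone called 2 (1.58% of all genes). Calls described as kept were kept in fits to all the other libraries, and most of those at 5 h were lost in this one. At 18 h, 3 of the 8 lower members remained without replicate 3 of BMDM-Nur77-KO (8.27% of all genes), with Atf6, Calr, Manf, P4hb and Ssr4 lost, and the fit to the libraries of that time alone called 2 (6.41% of all genes). The summed macrophage markers were also lower in BMDM-Nur77-KO at 18 h, as given above, and their part in these calls was not tested. At 0 and 1 h the fit to the libraries compared alone called more members lower, 12 (10.5% of all genes) and 9 (7.65% of all genes).

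Edem1 and Manf were lower in BMDM-Nur77-KO at all 4 times, as were 76 of all genes (0.679%) with them included. Atf6, Pdia4 and Pdia6 were lower at 3 of the times, as were 146 of all genes (1.31%) with them included. Manf was singled out after its values were seen. The calls of Edem1 were kept whichever library was left out. The call of Manf at 1 h was lost in 7 of the 8 settings that left out 1 library (adjusted p up to 0.139 in edgeR) and that at 18 h in 4 of 8 (up to 0.0997), while those at 0 and 5 h were kept. Edem1 had 339, 321, 337 and 342 CPM in BMDM-WT and 289, 243, 258 and 237 CPM in the knockout at 0 h (log2 fold change -0.38 ± 0.061 SE, adjusted p = 4.2e-05 in edgeR's quasi-likelihood test, Benjamini-Hochberg adjusted). At 1 h it had 342, 330.2, 364 and 368 CPM and 248, 261, 238 and 249 CPM (log2 fold change -0.49 ± 0.061 SE, adjusted p = 1.01e-06 in the same edgeR test). At 5 and 18 h its log2 fold changes were -0.42 and -0.23, and the genotypes did not overlap at any time. Manf had 64.5, 64.1, 67.4 and 69.2 CPM in BMDM-WT and 52.4, 54.5, 52.3 and 58.6 CPM in BMDM-Nur77-KO at 0 h. Its log2 fold changes at the 4 times were -0.28, -0.21, -0.25 and -0.18, again without overlap between the genotypes. Its rise with LPS at 5 and 18 h was called in both genotypes.

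Among the sensors, Atf6 was lower at 0, 1 and 18 h. At 1 h it had 167, 167, 176 and 171 CPM in BMDM-WT and 116, 113, 113 and 107 CPM in BMDM-Nur77-KO (log2 fold change -0.60 ± 0.078 SE, adjusted p = 2.5e-06 in edgeR's quasi-likelihood test, Benjamini-Hochberg adjusted). At 0 h it had 124, 117, 126 and 106 CPM in BMDM-Nur77-KO, all below the BMDM-WT libraries given above (log2 fold change -0.36 ± 0.078 SE, adjusted p = 0.00219 in the same edgeR test). At 5 h, 129, 127, 112 and 102 CPM overlapped the BMDM-WT libraries (log2 fold change -0.18 ± 0.079 SE, adjusted p = 0.0851 in the same edgeR test), and at 18 h, 101, 107, 99.6 and 124 CPM did as well (log2 fold change -0.26 ± 0.078 SE, adjusted p = 0.0148 in the same edgeR test). The call at 18 h was lost without replicate 1 or 3 of BMDM-Nur77-KO or replicate 3 of BMDM-WT, where the adjusted p in edgeR was 0.0507, 0.0606 and 0.0641. Xbp1 was lower at 5 h, without overlap and by the largest log2 fold change of any member in the genotype comparisons (log2 fold change -0.71 ± 0.076 SE, adjusted p = 6.2e-08 in the same edgeR test). It was -0.18 at 0 h, -0.17 at 1 h and -0.20 at 18 h, none of which passed, although its libraries did not overlap at any time.

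Atf6b was lower at 5 h, with 30.8, 31, 33.3 and 28.8 CPM in BMDM-WT and 12.9, 20.8, 25.7 and 25.7 CPM in BMDM-Nur77-KO (log2 fold change -0.54 ± 0.16 SE, adjusted p = 0.0157 in edgeR's quasi-likelihood test, Benjamini-Hochberg adjusted). Without replicate 1, the lowest of these, the log2 fold change was -0.37 and the adjusted p 0.0865 in the same edgeR test. At 0 h Atf6b had 24.3, 23.9, 28.6 and 30.6 CPM in BMDM-Nur77-KO (log2 fold change -0.44 ± 0.15 SE, adjusted p = 0.0546 in the same edgeR test), at 1 h 31.8, 30.2, 29.7 and 30.3 CPM and 32.8, 29.3, 31.9 and 30.1 CPM in the 2 genotypes, and at 18 h 61.2, 65.3, 72.6 and 37.5 CPM, where replicate 4 was low. Ern1 was higher at 18 h, with 37.5, 41.4, 38.7 and 38.5 CPM in BMDM-WT and 46.3, 58.6, 46.8 and 43.3 CPM in BMDM-Nur77-KO (log2 fold change 0.32 ± 0.10 SE, adjusted p = 0.0198 in the same edgeR test). Without replicate 2 of the knockout, the highest, its log2 fold change was 0.22 and the adjusted p 0.113 in the same edgeR test, and without replicate 1 of BMDM-WT the adjusted p was 0.0593. Hspa5 passed the threshold at no time, with log2 fold changes of -0.10, -0.18, -0.078 and 0.024 at 0, 1, 5 and 18 h. Its 95% intervals lay within -0.30 and 0.15 on the log2 scale. At 1 h, however, all its BMDM-Nur77-KO libraries lay below those of BMDM-WT. Without replicate 1 of the knockout at 5 h, the log2 fold change of Hspa5 was -0.14 (adjusted p = 0.132 in edgeR).

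Among the isomerases, Pdia4 was lower at 0, 1 and 5 h, with log2 fold changes of -0.34, -0.27 and -0.24. With 1 library left out, the call of Pdia4 at 1 h was lost in 6 of 8 settings and that at 5 h in 3. Pdia6 was lower at 0, 5 and 18 h, with -0.20, -0.32 and -0.33. The call of Pdia6 at 0 h was lost in 6 of 8 such settings and its others in none. The Pdia6 libraries at 18 h ranged from 177 to 183 CPM in BMDM-WT and from 136 to 149 CPM in BMDM-Nur77-KO. Creld2 was lower at 5 h (-0.23) and P4hb at 18 h (-0.21), each lost in 4 of 8 settings, and Pdia3 was not called. Among the chaperones other than Manf, Sdf2l1, a partner of BiP, was lower at 5 and 18 h. At 18 h it had 36.8, 34.9, 30.8 and 32.7 CPM in BMDM-WT and 28.8, 25.3, 28 and 16.1 CPM in BMDM-Nur77-KO (log2 fold change -0.46 ± 0.15 SE, adjusted p = 0.0309 in edgeR's quasi-likelihood test, Benjamini-Hochberg adjusted). Replicate 4 was the lowest, and without it the log2 fold change of Sdf2l1 was -0.30 with an adjusted p of 0.156 in edgeR. The call at 18 h was also lost without replicate 1, 2 or 4 of BMDM-WT, and that at 5 h was kept. Hyou1, a large HSP70 relative, was lower at 5 h (-0.47), but without replicate 1 its value was -0.28 with an adjusted p of 0.0576 in edgeR. Calr was lower at 18 h (-0.27), and without replicate 3 its adjusted p was 0.0962 in edgeR. Dnajb9 had positive values at 0, 5 and 18 h, up to 0.53 at 5 h, that did not pass. Its value at 5 h was 0.25 without replicate 1 of the knockout. At 18 h it was 0.43, and 0.23 without replicate 4 of the knockout.

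In the translocon, Sec61g was lower at 0 h, with 33, 26.9, 35.8 and 32 CPM in BMDM-WT and 17.7, 27.7, 23.5 and 23.2 CPM in BMDM-Nur77-KO (log2 fold change -0.46 ± 0.12 SE, adjusted p = 0.0111 in edgeR's quasi-likelihood test, Benjamini-Hochberg adjusted). These groups overlapped, and the call of Sec61g at 0 h was lost without replicate 1 of BMDM-Nur77-KO or replicate 3 of BMDM-WT (adjusted p up to 0.0717 in edgeR, log2 fold change nearest to zero -0.36). The log2 fold change at 5 h was -0.54, also called. Sec61b was lower at 5 h, with 25.8, 24.6, 23.3 and 22.2 CPM and 10.6, 15.3, 18.3 and 19.4 CPM (log2 fold change -0.59 ± 0.14 SE, adjusted p = 0.003 in the same edgeR test). Without replicate 1, the lowest, its log2 fold change was -0.44 and the adjusted p 0.0136 in the same edgeR test. Ssr4 was lower at 5 and 18 h. Its libraries at 18 h had 47.6, 46.8, 41.7 and 42.3 CPM in BMDM-WT and 35.8, 39.3, 34.1 and 29.8 CPM in BMDM-Nur77-KO (log2 fold change -0.36 ± 0.12 SE, adjusted p = 0.031 in the same edgeR test), a call lost without replicate 3 or 4 of BMDM-Nur77-KO or replicate 1 or 2 of BMDM-WT (adjusted p up to 0.119 in edgeR). Sec61a1 was lower at 5 h (-0.25), a call lost in 4 of 8 settings, and without replicate 1 its value was -0.15 with an adjusted p of 0.182 in edgeR. Ssr1, Ssr2 and Ssr3 were not called at any time. In the degradation group, Edem1 and Derl2 were the members called. Herpud1, Edem2, Syvn1, Sel1l and Derl1 had log2 fold changes between -0.34 and 0.22 and passed at no time. The transcripts counted for Sec61b and Sdf2l1 are short, at 564 and 1108 bases, and the length at hand for Ssr4, 765 bases, is that of another of its transcripts. Replicate 1 at 5 h and replicate 4 at 18 h were the lowest knockout libraries for all 3 genes. The part of transcript length in these differences was not tested.

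The wider pathway list, 82 genes of folding, glycosylation, export and the PERK branch of which 76 were tested, had calls in both directions between the genotypes. At 5 h, 12 of its genes were higher in BMDM-Nur77-KO (15.8%, beside 13.7% of all genes) and 10 lower (13.2%, beside 10.7%). At 18 h, 7 were higher (9.21%, beside 11.7%) and 8 lower (10.5%, beside 9.94%). At 1 h, 3 were higher (3.95%, beside 3.48%) and 1 lower (1.32%, beside 3.06%), and at 0 h, 3 were higher and 3 lower (3.95% each, beside 6.33% and 6.34%). Its median log2 fold change was 0.0016, -0.033, -0.0023 and -0.0064 at 0, 1, 5 and 18 h. No count or call of this list was read from the fits with a library left out, replicate 1 of BMDM-Nur77-KO at 5 h included. With LPS in BMDM-WT, 8 of the 76 rose at 1 h (10.5%, beside 10.1% of all genes) and 5 fell (6.58%, beside 10.2%). At 5 h, 21 rose (27.6%, beside 30.1%) and 17 fell (22.4%, beside 40.1%), and at 18 h, 26 rose (34.2%, beside 32.4%) and 19 fell (25%, beside 34%). In BMDM-Nur77-KO, 4 rose at 1 h (5.26%, beside 6.9%) and 1 fell (1.32%, beside 5.39%). At 5 h, 20 rose and 20 fell (26.3% each, beside 32.2% and 39.3%), and at 18 h, 26 rose (34.2%, beside 33.9%) and 24 fell (31.6%, beside 35.7%).

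In the PERK branch, which slows translation, the responses to LPS came at different times. Ppp1r15a (GADD34), which restores translation after PERK, had a mean of 27.1 CPM at 0 h and 703 ± 93.9 CPM at 1 h in BMDM-WT (SD, n = 4; log2 fold change 4.70 ± 0.11 SE, adjusted p = 5.83e-25 in edgeR's quasi-likelihood test, Benjamini-Hochberg adjusted). Its constitutive counterpart Ppp1r15b rose most at 5 h, to 805 ± 25.9 CPM from 100.2 ± 3.88 CPM at 0 h (SD, n = 4; log2 fold change 3.01 ± 0.061 SE, adjusted p = 3.52e-27 in the same edgeR test). Eif2ak3, which encodes PERK, fell at 5 h from 33.1 ± 1.4 CPM to 6.35 ± 0.404 CPM (SD, n = 4; log2 fold change -2.38 ± 0.086 SE, adjusted p = 5.17e-21 in the same edgeR test). Eif2ak3 thus had its lowest mean level at 5 h, as Ern1 did. Ddit3, which encodes CHOP, a transcription factor of prolonged ER stress, fell at 1 and 5 h and rose at 18 h, with means of 20.3, 13.7, 9.27 and 113 CPM at the 4 times. The rise at 18 h was 5.53-fold (log2 fold change 2.47 ± 0.11 SE, adjusted p = 9.67e-19 in the same edgeR test). Trib3, a CHOP target, reached 15.9 ± 2.21 CPM at 18 h from 1.75 ± 0.354 CPM (SD, n = 4; log2 fold change 3.18 ± 0.23 SE, adjusted p = 2.48e-13 in the same edgeR test). Nck1, an adaptor that dampens PERK signalling, rose at 5 h (log2 fold change 1.88 ± 0.12 SE, adjusted p = 2.08e-14 in the same edgeR test).

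Chac1, another target of this branch that degrades glutathione, was higher at 1 h (log2 fold change 2.34 ± 0.42 SE, adjusted p = 8.16e-05 in edgeR's quasi-likelihood test, Benjamini-Hochberg adjusted), but its mean was 0.243 CPM at 0 h and 1.31 CPM at 1 h. Uggt1, the folding sensor for glycoproteins, and Mbtps1, the protease that releases ATF6, fell at 18 h, with log2 fold changes of -0.89 and -0.88. Ube2g2, a conjugating enzyme of degradation, fell at 1 h (-0.34).

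Between the genotypes, Ddit3 was higher in BMDM-Nur77-KO at 1, 5 and 18 h. At 5 h it had 9.27 ± 0.888 CPM in BMDM-WT and 17.1 ± 3.49 CPM in BMDM-Nur77-KO, and at 18 h 113 ± 3.93 CPM and 154 ± 15.6 CPM (SD, n = 4). The difference was called at 1 h (log2 fold change 0.56 ± 0.11 SE, adjusted p = 0.00128), at 5 h (log2 fold change 0.88 ± 0.12 SE, adjusted p = 7.49e-06) and at 18 h (log2 fold change 0.45 ± 0.10 SE, adjusted p = 0.00114) in edgeR's quasi-likelihood test, Benjamini-Hochberg adjusted. The response at 5 h itself differed between the genotypes (0.68, adjusted p = 0.0159 in the same edgeR test). Ppp1r15a was higher at 5 and 18 h, with log2 fold changes of 0.70 and 0.69. The response of Ppp1r15a at 18 h was also larger in the knockout, by 0.45 (adjusted p = 0.0367 in the same edgeR test). Nck1 was higher at 0 and 5 h (0.58 and 0.79), and Ero1a, the oxidase that drives disulfide formation, was higher at 0, 5 and 18 h, most at 0 h (log2 fold change 0.81 ± 0.12 SE, adjusted p = 1.08e-05 in the same edgeR test). Wfs1, a membrane protein of the ER, was higher at 1 and 18 h (0.41 and 0.71), and Chac1 at 18 h (0.89). Eif2ak3 was lower at 18 h (-0.41).

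Rpn1, a subunit of oligosaccharyltransferase, had 155 ± 3.46 CPM in BMDM-WT and 108 ± 6.96 CPM in BMDM-Nur77-KO at 18 h (SD, n = 4; log2 fold change -0.52 ± 0.058 SE, adjusted p = 3.4e-08 in edgeR's quasi-likelihood test, Benjamini-Hochberg adjusted). Uggt1 was lower at the same time (log2 fold change -0.50 ± 0.086 SE, adjusted p = 4.11e-05 in the same edgeR test). The responses of both to 18 h of LPS differed between the genotypes as well, by -0.40 and -0.38 on the log2 scale. Dad1, another subunit of that enzyme, and Txndc11, a thioredoxin-domain protein, were lower at 0 h (-0.45 and -0.38), Dnajc10, a reductase of degradation, at 1 h (-0.27) and Sec24d, a coat protein of export vesicles, at 5 h (-0.50). Pdia5 was lower at 5 h (-0.88) at a mean of 1.21 CPM in the knockout. The Sec24d libraries of BMDM-Nur77-KO at 5 h ranged from 22.9 to 47.1 CPM. The part of replicate 1 in the 5 h calls of the wider list was not tested.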

How the data were processed

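RNA-seq libraries of 32 macrophage samples, 8 groups of 4, had been prepared with a strand-specific mRNA kit. The authors called bases with CASAVA 1.8.2, aligned reads to mm10 with HISAT2 2.1.0, filtered with SAMtools 1.16.1 and counted reads per RefSeq transcript with HOMER. Whether counting used strand is not given in the sources used here. The deposited values are expected counts (28.6% were not whole, in steps of 0.5) and were rounded. Of 42361 transcripts, 93 had no gene name and were left out, which held 0.233% to 1.37% of a library's counts. Each gene was represented by its most highly counted transcript.

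Levels are CPM or RPKM with TMM scaling. The 11187 genes that exceeded 1 RPKM on average in any group were tested with edgeR 4.0.16 (R 4.3.3): quasi-likelihood F test, 1 model of 8 group means, Benjamini-Hochberg adjustment over all genes tested. A gene was called at an adjusted p under 0.05. Standard errors are the log2 fold change over the square root of F. The steps were tested on simulated data. DESeq2 1.42.0, its size factors, other filters, a replicate block, a fit to the libraries compared alone, a limit on the fold change and leaving out each library were tried. The members and lists were chosen with earlier results of these data known.

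The named genes were all 34 members, with the value of every library and a full test for Hspa5, Xbp1, Ern1, Atf6 and Atf6b and for the 2 members called with the largest log2 fold change in each direction, per genotype comparison and per LPS comparison in BMDM-WT. The same rule chose genes of the wider list, of which 82 were matched. Promoters are RefSeq's, on GRCm38.p6.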

Additional observations from a re-analysis of the deposited data

Results flagged for a closer look

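Of 168 sets of 4 libraries examined, each a group's values of a named gene or of a role's mean level, 8 held a library whose gap to its nearest neighbour was unusually wide against the range of the group. By chance about 1 set in 20 does so. Atf6 was low in replicate 4 of BMDM-WT at 5 h, at 123 CPM. Hspa5 was high in replicate 1 of BMDM-Nur77-KO at 5 h, at 1883 CPM. Sdf2l1 was low in replicate 3 of BMDM-WT at 0 h, at 38.1 CPM, and Sec61b in replicate 4 of that group, at 22.4 CPM. Ssr3 was high in replicate 3 of BMDM-WT at 18 h, at 410.4 CPM. The mean level of the isomerases, as log2(CPM + 0.5) relative to BMDM-WT at 0 h, was high in replicate 3 of BMDM-Nur77-KO at 0 h, at -0.15. The same mean of the translocon genes was low in replicate 4 of BMDM-Nur77-KO at 18 h, at -0.36, and high in replicate 1 of BMDM-Nur77-KO at 1 h, at -0.11.

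The response to LPS differed between the genotypes for 3 values, by edgeR's test of the difference. The response of Xbp1 at 5 h was smaller in BMDM-Nur77-KO by 0.53 on the log2 scale (-0.53), and the responses of Derl2 were smaller at 5 h (-0.35) and at 18 h (-0.36).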

How the results depend on the processing

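Counts of members called kept within 1.5 times their value with edgeR's filterByExpr (12215 genes tested) and with counts summed over a gene's transcripts. Among the members given a full test, no called fold change turned its direction under any setting run. Other members were not followed under every setting. Scaling on library totals was not fitted, and its shift of -0.62 at 5 h in BMDM-WT is larger in size than the rise of Xbp1 (0.46). With DESeq2's size factors, 15 members rose in BMDM-WT (33.2% of all genes) and 5 fell in BMDM-Nur77-KO (35.2%) at 5 h of LPS. At that time 1 was higher in the knockout (15.1%). DESeq2's own test gave 15, 5 and 2 for the same counts (33.5%, 35.5% and 16.2% of all genes). It gave 7 lower in the knockout at 1 h (3.84%), 5 rising in BMDM-WT at 1 h (13.6%) and 1 larger response at 18 h (6.17%). A fit to the libraries compared alone gave 2 higher (11.1% of all genes) and 12 lower (10.5%) in the knockout at 0 h. At 1 h it gave 1 (7.75%) and 9 (7.65%), at 5 h 2 lower (1.58%), and at 18 h 0 higher (7.99%) and 2 lower (6.41%). It gave 7 rising (18.3%) and 3 falling (15.4%) in BMDM-WT at 1 h, 16 rising at 5 h (36.2%), and 4 falling in BMDM-Nur77-KO at 5 h (30.1%). Of the differences in response, it called 2 larger (0.813%) and 2 smaller (1.14%) at 1 h, 0 smaller at 5 h (0.787%) and 1 larger at 18 h (5.43%). The cause was not tested.

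The limits on the log2 fold change left, between the genotypes, 0 higher and 0 lower at 0 h, 1 lower at 1 h, 2 lower at 5 h, and 0 higher and 0 lower at 18 h. With LPS in BMDM-WT they left none at 1 h (0 rising, 0 falling), 1 rising and 2 falling at 5 h, and 0 in either direction at 18 h. In BMDM-Nur77-KO they left 0 in either direction at 1 h, 2 in either direction at 5 h, and 3 rising and 0 falling at 18 h.

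With 1 library left out, the members lower in the knockout numbered 2 to 4 at 1 h and 3 to 9 at 18 h, fewest when the third knockout library of that time was dropped (replicate 3), and those higher 0 to 2 at either 5 or 18 h. The larger responses at 18 h numbered 0 to 2, the smaller responses at 5 h 1 to 2, and the falls in BMDM-Nur77-KO at 1 h 1 to 2. The share of all genes called changes with each fit and is not given for these ranges as a whole. It was 8.27% for those lower at 18 h without replicate 3 of the knockout. For the larger responses at 18 h it was 6.15% without replicate 4 of the knockout.

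Groups share replicate numbers, but samples of the same number did not deviate together (median correlation -0.023 over 112 pairs, against 0.0041 for 336 pairs of other numbers). With the replicate block, 1 member, Xbp1, had a smaller response at 5 h, and the other counts stayed within 1.5 times. Precision is limited by 4 libraries per group and by counts of short or scarce transcripts such as Sec61b and Herpud1.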
